A study of Mus musculus with 2 samples.

Results

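Egr1, Egr2 and Egr3 encode zinc-finger transcription factors, and Nr4a1, Nr4a2 and Nr4a3 encode orphan nuclear receptors. The 6 genes were measured in GD2TIF cells, mouse T cells sorted from spleen. They were taken by symbol from the deposited RNA matrix, which holds 20794 genes, and all 6 were found in it. Their levels were read over all 10338 cells kept and over 19 families of cells that share 1 T cell receptor beta chain (TRB). GD2TIF cells carry a Cas9 transgene and received a retrovirus that targets Bcor and Zc3h12a and delivers the GD2 chimeric antigen receptor 14g2a. Each immunocompetent C57BL/6 mouse received 1000000 of them, and 2 months later CD8+Thy1.1+ cells were sorted, giving 1 RNA library and, from the same cells, 1 library of T cell receptor (TCR) transcripts. All cells carry the same virus and there is no unedited, untransferred or earlier group. The number of mice and their age are not given in the sources used here, so a difference between families and a difference between mice cannot be told apart. There is no replicate library, so no test was run. Values carry exact 95% intervals, which cover counting error only. Those of levels and folds treat each UMI as independent, so they are too narrow where UMIs gather in few cells.

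These genes are immediate early or early genes of antigen receptor signalling in T cells. Calcium and the MAP kinase ERK bring in NFAT, SRF with its partners, CREB and MEF2, which switch the genes on within the first hours, and their transcripts decay quickly once the signal ends. Egr2 and Egr3 are known from T cell anergy and from restraint of activation. Nr4a1, also called Nur77, is widely used as a readout of receptor signal, and the Nr4a receptors are known for their part in exhaustion of CD8 T cells, CAR T cells included.

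The cells had a median of 1922 UMIs (unique molecular identifiers, each standing for 1 captured transcript molecule) and 977 genes, with 5th and 95th percentiles of 815 and 4244 UMIs. Of 5479 barcodes in the TCR library, 4586 were also among the cells kept, and 3879 of these had exactly 1 productive TRB. These fell into 430 families by the nucleotide sequence of the CDR3, the stretch of the chain that contacts antigen. The 19 families of at least 30 cells held 2865 cells.

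Nr4a2 was the highest of the 6 genes, at 163 UMIs per 1000000 UMIs (CPM, 158 to 169), from 3636 UMIs. Egr1, an immediate early zinc-finger factor, followed at 78.1 CPM (74.4 to 81.8). Nr4a1 stood at 30.8 CPM (28.6 to 33.2) and Nr4a3 at 17.0 CPM (15.3 to 18.8). Egr2 stood at 10.4 CPM (9.12 to 11.8) and Egr3 at 7.63 CPM (6.53 to 8.87). No interval of this order overlapped that of its neighbour, though these intervals treat each UMI as independent. The levels count captured molecules and were not divided by gene length, and how well each transcript is captured was not tested. Summed, the 6 genes reached 307 CPM (299.9 to 314.5), and Nr4a2 alone gave 53.1% of their UMIs. The 3 Nr4a genes summed to 211 CPM and the 3 Egr genes to 96.1 CPM. Egr4, the remaining Egr gene, had 2 UMIs in all, under the floor of 3. Of the Egr corepressors, Nab1 stood at 102 CPM and Nab2 at 58.2 CPM. Of the RXR receptors with which Nr4a1 and Nr4a2 can pair, Rxrb stood at 76.8 CPM and Rxra at 1.21 CPM.

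Most cells showed no transcript of any of the 6. To compare cells at 1 depth, each was thinned at random to 1000 UMIs, which left out 882 shallower cells and kept 9456. At this depth 2014 cells, 21.3% (20.5 to 22.1), had a UMI of at least 1 of the genes, and unthinned the share was 34.2%. Nr4a2 was found in 13.5% of thinned cells (12.8 to 14.2) and Egr1 in 5.63% (5.17 to 6.11). Nr4a1 was found in 2.52%, Nr4a3 in 1.32%, Egr2 in 0.846% and Egr3 in 0.582%. Of the thinned cells 1771 had 1 of the genes, 206 had 2, 31 had 3 and 6 had 4 or more. No cell type of this sort is known to lack all 6 genes, so the share that free RNA gives could not be read from one. In the 155 cells with at least 2 markers of B cells or of monocytes and macrophages, at a median of 2585 UMIs, Nr4a2 stood at 119 CPM and Egr1 at 81.7 CPM. In the other 10183 cells, at a median of 1910 UMIs, Nr4a2 stood at 164 CPM and Egr1 at 78.0 CPM.

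**Figure D1:**
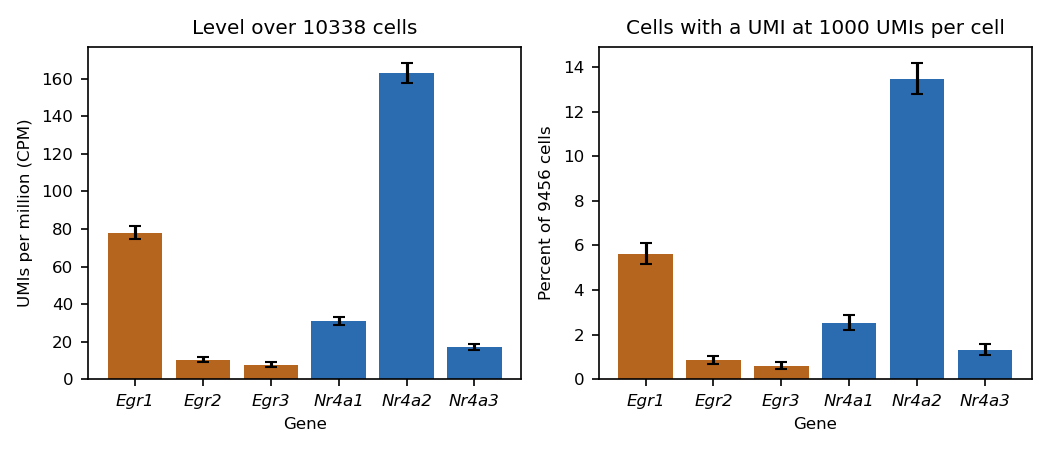
Level of each gene over all cells, in CPM (left), and percent of cells with at least 1 UMI after thinning to 1000 UMIs per cell (right). Bars are values of the single library, error bars are exact 95% counting intervals, Egr genes are brown and Nr4a genes blue; Nr4a2 is highest in both panels and Egr3 lowest.

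The genes also differed in how their UMIs were spread over cells. Nr4a2 was thin and wide: 1568 of its 2341 positive cells had 1 UMI, its highest cell had 20, and the 10 highest cells held 2.78% of its UMIs. Egr1 reached 15 UMIs in 1 cell and had 5 or more in 41 of 1065 positive cells. Egr2 and Egr3 were rare and concentrated. Egr3 had 170 UMIs in 107 cells, up to 13 in 1 cell, and the 10 highest cells held 28.8% of them. Egr2 had 232 UMIs in 157 cells, up to 9 in 1 cell, and the 10 highest cells held 20.3%. At matched depth, cells with 2 or more Egr3 UMIs were 32.9 times the number that evenly spread UMIs would give (8 cells against 0.243). The ratio was 24.7 for Egr2, 18.2 for Nr4a3, 6.58 for Nr4a1, 4.18 for Egr1 and 2.04 for Nr4a2. Over 9269 genes found in at least 0.5% of cells the median ratio was 4.15. Egr3 stood at the 99.3th percentile of these genes, Egr2 at the 97.3th and Nr4a2 at the 18.5th. From Egr3, the lowest in level, to Nr4a2, the highest, the ratio fell at each step as the level rose. The genes ranked were not matched for level. So the part of level in the ratios, the percentiles and the shares of the 10 highest cells was not tested.

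The promoters of 4 of the 6 genes matched the RefSeq table (GRCm38.p6), as windows of 250 bases before to 50 after a transcription start. They are shown because CREB and SRF are known inputs of these genes. Both strands were searched. Capitals mark the CRE half-site TGACG, which on the strand shown may read as its complement CGTCA, and in Egr2 also the CArG box bound by SRF. In Egr2 no half-site overlapped the CArG box.
Nr4a1, chr15:101266596-101266895, plus strand: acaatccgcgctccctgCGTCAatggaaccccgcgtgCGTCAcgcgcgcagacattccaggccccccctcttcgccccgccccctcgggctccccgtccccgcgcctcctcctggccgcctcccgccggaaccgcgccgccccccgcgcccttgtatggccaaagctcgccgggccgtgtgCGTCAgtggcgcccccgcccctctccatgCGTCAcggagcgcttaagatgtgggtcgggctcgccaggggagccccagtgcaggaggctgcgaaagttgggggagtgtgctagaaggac
Nr4a2, chr2:57123954-57124253, minus strand: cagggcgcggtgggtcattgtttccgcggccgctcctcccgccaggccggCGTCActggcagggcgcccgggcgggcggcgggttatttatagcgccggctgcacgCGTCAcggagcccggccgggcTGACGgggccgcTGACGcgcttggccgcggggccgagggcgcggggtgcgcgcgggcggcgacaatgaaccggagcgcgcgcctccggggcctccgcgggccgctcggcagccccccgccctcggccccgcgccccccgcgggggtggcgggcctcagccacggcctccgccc
Nr4a3, chr4:48045055-48045354, plus strand: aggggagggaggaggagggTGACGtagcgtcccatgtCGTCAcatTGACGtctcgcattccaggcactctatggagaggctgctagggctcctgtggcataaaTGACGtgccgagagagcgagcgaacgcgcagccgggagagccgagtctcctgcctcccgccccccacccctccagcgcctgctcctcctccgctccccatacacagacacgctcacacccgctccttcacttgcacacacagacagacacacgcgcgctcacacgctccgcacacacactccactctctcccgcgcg
Egr2, chr10:67537619-67537918, plus strand: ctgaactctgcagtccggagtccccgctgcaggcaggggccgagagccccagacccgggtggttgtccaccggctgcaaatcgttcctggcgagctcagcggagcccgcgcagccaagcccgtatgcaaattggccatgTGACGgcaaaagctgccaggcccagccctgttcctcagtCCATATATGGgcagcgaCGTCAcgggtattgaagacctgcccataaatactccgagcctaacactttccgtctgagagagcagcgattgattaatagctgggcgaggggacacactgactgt
Each of the 3 Nr4a windows held 4 half-sites. Of 32851 promoter windows of the table, 20.8% held at least 1, 5.01% at least 2 and 1.03% at least 3. The Egr2 window held 2 half-sites and 1 CArG box, which 1.63% of all windows hold. The window shown for Egr2 is 1 of 5 in the table, and the other starts held 0 or 2 half-sites. These matches describe letters, and no binding was measured.

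The genes were found together in the same cells. For each of the 15 pairs, the number of thinned cells with both genes was set against the product of the 2 shares. Egr2 and Egr3 were both found in 10 cells, against 0.465 expected, a ratio of 21.5 (10.3 to 39.5). Among 9268 genes ranked by this ratio, each of these 2 genes was the first for the other. Egr1 was found with Egr3 in 21 cells, against 3.09 expected, a ratio of 6.79 (4.20 to 10.4). Egr1 was found with Egr2 in 30 cells, against 4.50 expected, a ratio of 6.67 (4.50 to 9.52). So the 3 Egr pairs stood among the 4 highest ratios of the 15.

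Egr2 and Egr3 were also found with the Nr4a receptors. Egr2 and Nr4a1 shared 12 cells, against 2.01 expected, a ratio of 5.96 (3.08 to 10.4). Egr3 and Nr4a1 shared 8 cells, against 1.38 expected, a ratio of 5.78 (2.49 to 11.4). For Nr4a1, the first and second genes in the ranking were Egr2 and Egr3. Egr3 and Nr4a3 shared 5 cells at a ratio of 6.88, and Egr2 and Nr4a3 shared 5 cells at 4.73. Among the Nr4a genes themselves the ratios were lower, 2.22 for Nr4a1 and Nr4a3 (0.895 to 4.58), 1.72 for Nr4a2 and Nr4a3 (1.15 to 2.47) and 1.62 for Nr4a1 and Nr4a2 (1.21 to 2.12). The ratios of Nr4a2 ran from 1.42 with Egr1 (1.16 to 1.73) to 2.04 with Egr2 (1.28 to 3.09). Few genes reached high ratios with Nr4a2, and among 9268 genes its partners ranked from 8th (Egr2) to 298th (Egr1). Of thinned cells with Egr3, 60% had another of the 6 genes, and of those with Egr2 58.8%, against 28.6% with Egr1 and 14.1% with Nr4a2. These shares have unlike baselines, as Nr4a2, found in 13.5% of thinned cells, can be the other gene for all but itself. No expected share was computed.

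Of the 10 pairs with at least 3 cells expected, 9 reached a ratio of 1.5, against a background of 5.48% among all 33266139 such pairs of genes. Over all 15 pairs it was 14, and the interval lay above 1 in 12. For the rarer genes such ratios are common: 21.8% of 9268 genes reached 1.5 with Egr3, 20% with Egr2, 15.4% with Nr4a3, 11.3% with Nr4a1, 5.43% with Egr1 and 2.0% with Nr4a2. Egr1 with Nr4a2 was the pair under 1.5. With all UMIs and the expected number taken within 20 bins of depth, Egr2 and Egr3 shared 26 cells against 2.10 expected, a ratio of 12.4 (8.08 to 18.1). Egr1 and Egr2 then shared 86 cells against 19.9, a ratio of 4.32 (3.45 to 5.33), and 12 of 15 pairs reached 1.5. Within the 19 TRB families the ratio was 53.8 for Egr2 and Egr3, 7.84 for Egr1 and Egr3 and 6.29 for Egr1 and Egr2. The ratio within families was 1.09 for Egr1 and Nr4a2, the lowest of the 15. No interval was computed for these ratios, and that of Egr2 and Egr3 rests on very few cells. Egr3 was found in 0.234% of thinned cells of the largest family, and in none of the second largest. So 53.8 does not show a closer link within families than the 21.5 over all cells.

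**Figure D2:**
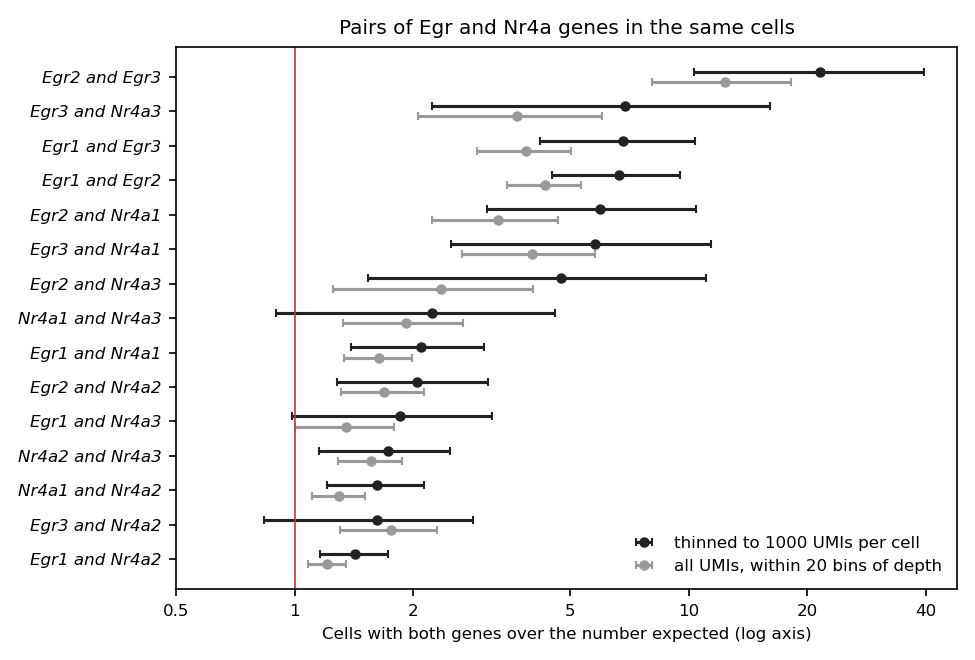
Cells with both genes of a pair over the number expected from the product of their shares, on a log axis, for the 15 pairs. Black points are cells thinned to 1000 UMIs, grey points all UMIs within 20 bins of depth, bars are exact 95% intervals of the observed number and the red line marks 1; Egr2 with Egr3 stands at 21.5 and Egr1 with Nr4a2 at 1.42.

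Beyond the pairs, 19 of 7903 genes found in at least 1% of cells, 0.24%, reached a ratio of 1.5 with cells that had any of the 6. The chemokine genes Ccl4 (ratio 2.10, 60 cells against 28.5 expected) and Ccl3 (1.86, 44 cells against 23.6) led them. The AP-1 gene Fosl2 (1.68), the death ligand gene Fasl (1.67) and Osr2 (1.65) came next.

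Cells with at least 2 of the 6 genes were then set against cells with none, with all UMIs kept and the expected level taken from cells with none in the same of 20 bins of depth. There were 717 such cells, at a median of 2548 UMIs, and 6804 with none, at a median of 1795. Over 10517 genes tested (at least 5 UMIs expected) the median fold was 1.02. Rel, the c-Rel subunit of NF-kB, stood at 136 CPM in cells with at least 2 of the genes, against 61.0 CPM expected from cells with none, a fold of 2.23 (1.94 to 2.56). Nab2, a corepressor that binds Egr proteins and is itself induced by them, stood at 105 CPM against 47.0 CPM, a fold of 2.23 (1.90 to 2.6). Both were higher within families too, at 2.34 (1.77 to 3.06) for Rel and 2.16 (1.58 to 2.92) for Nab2. Within families means that cells with none came from the same TRB family and 1 of 5 bins of depth, which could be had for 223 of the 717 cells. A fold within families differs from that over all cells both in the cells used and in the matching. These are not told apart here. Taken instead in cells thinned to 1000 UMIs, of which 243 had at least 2 of the genes, the fold of Rel was 3.86 and 3.54 in 2 random draws and that of Nab2 2.58 and 3.12. Of 16 genes recomputed so, 13 stood farther from 1 in both draws than in bins of depth.

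Of 18 tested genes of a list of other receptor-induced genes, 6 were higher by 1.5-fold or more, against a background of 5.12% of genes. They were Rel, Ccl4, Ccl3, Irf4, Nfkbid and Xcl1, and the list's median fold was 1.39. Ccl4 stood at 78.3 CPM in cells with at least 2 of the genes, against 10.1 CPM expected, a fold of 7.73 (6.24 to 9.56). Its 160 UMIs lay in 29 cells, and 5 of these held 96. Within families its fold was 7.43 (3.66 to 15.2). Ccl3 stood at 36.7 CPM against 8.90 CPM, a fold of 4.13 (3.08 to 5.48), from 25 cells. Nfkbid, an NF-kB regulator, had a fold of 1.87 (1.38 to 2.51). Cd69, an early activation marker, stood just under the limit at 299 CPM against 205 CPM, a fold of 1.46 (1.33 to 1.59). It stood past the limit within families, at 1.84, and at 1.61 in both draws of thinned cells.

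A pair of genes of this list stood closer to 1 within families. Irf4, a transcription factor that scales with receptor signal strength, had a fold of 2.04 (1.29 to 3.13) over all cells and 0.946 within families. Xcl1, a chemokine gene, stood at 346 CPM against 199 CPM, a fold of 1.74 (1.59 to 1.89), and at 1.32 (1.06 to 1.64) within families. Its fold was 2.63 and 2.93 in the draws of thinned cells. A single cell held 90 of its 707 UMIs.

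Of the ERK phosphatases and brakes, which are induced by the signal they limit, 3 of 10 were higher, against a background of 5.12%. Dusp4 had a fold of 1.70 (1.35 to 2.14), Dusp5 of 1.66 (1.33 to 2.06) and Spry1 of 1.66 (1.19 to 2.27). Of the inhibitory receptors and exhaustion factors, 3 of 9 were higher, against the same background, with a list median of 1.46. Lag3 stood at 348 CPM against 199 CPM, a fold of 1.75 (1.61 to 1.90), and Havcr2, which encodes TIM-3, at 11.7 CPM against 4.57 CPM, a fold of 2.57 (1.53 to 4.19). Cd244a, the gene of the receptor 2B4, had a fold of 2.56 from 13 UMIs. Pdcd1 (1.46) and Ctla4 (1.48) stood just under the limit, and within families at 1.24 and 1.21. In thinned cells the fold of Ctla4 was 1.86 in 1 random draw and 0.979 in another, so its direction was not stable.

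Other immediate early genes differed less. Of 13 AP-1 and other immediate early genes, 1 was higher and 1 lower, against backgrounds of 5.12% higher and 7.06% lower, with a list median of 1.15. Fosl2 was the higher one, at 26.9 CPM against 10.9 CPM, a fold of 2.46 (1.78 to 3.35), and the lower one was Ier3, from 2 UMIs. Fos stood at 483 CPM against 413 CPM (1.169) and Jun at 542 CPM against 531 CPM (1.02). No heat shock gene of 8 passed 1.5-fold in either direction, and Hspa1a had a fold of 0.801. The fold of Hspa1a was 1.05 within families and 0.556 and 0.532 in 2 random draws of thinned cells. Both lists are also known to respond to tissue handling, whose part was not tested, and the median mitochondrial share was 3.42% in cells with at least 2 of the genes and 3.58% in cells with none.

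Of 8 quiescence and stemness genes 1 was lower by 1.5-fold or more and none higher, against backgrounds of 7.06% lower and 5.12% higher. It was Il7r, the interleukin-7 receptor gene, at 54.8 CPM against 83.5 CPM, a fold of 0.656 (0.536 to 0.797). Within families it stood at 0.540, and in the draws of thinned cells at 0.365 and 1.02. Klf2, which receptor signal switches off, stood at 2003 CPM against 2554 CPM, a fold of 0.784, and at 0.655 and 0.660 in the draws of thinned cells. Of 14 genes reported downstream of Egr2 and Egr3 or in anergy, none passed 1.5-fold, and the list median was 1.07. Dgka stood at 166 CPM against 194 CPM (0.859) and Cblb at 92.01 CPM against 83.6 CPM (1.10). Of 13 signal inputs, Elk1 alone passed, upward, against the background of 5.12%. It did so from 16 UMIs and with an interval that held 1 (0.822 to 2.64).

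Of 8 T cell markers none passed 1.5-fold, and their summed level was 12045 CPM in cells with at least 2 of the genes and 10995 CPM expected from cells with none. Markers of other cell types were low. Those of B cells summed to 136 CPM against 139 CPM, of monocytes and macrophages to 24.96 CPM against 23.5 CPM, and of CD4 and regulatory T cells to 25.4 CPM against 22.9 CPM. Markers of NK cells summed to 0.489 CPM against 6.63 CPM. Markers of dendritic cells, neutrophils and platelets were at 0 in cells with at least 2 of the genes. Cells with at least 2 markers of B cells or of monocytes and macrophages made up 18 of the 717 (2.51%) and 93 of the 6804 (1.37%). Markers of red cells summed to 11.7 CPM against 424 CPM, and all 5 cells with 10 or more haemoglobin UMIs were among the cells with none. Without the cells with B cell or monocyte markers the fold was 2.18 for Rel, 2.27 for Nab2 and 1.73 for Lag3.

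**Figure D3:**
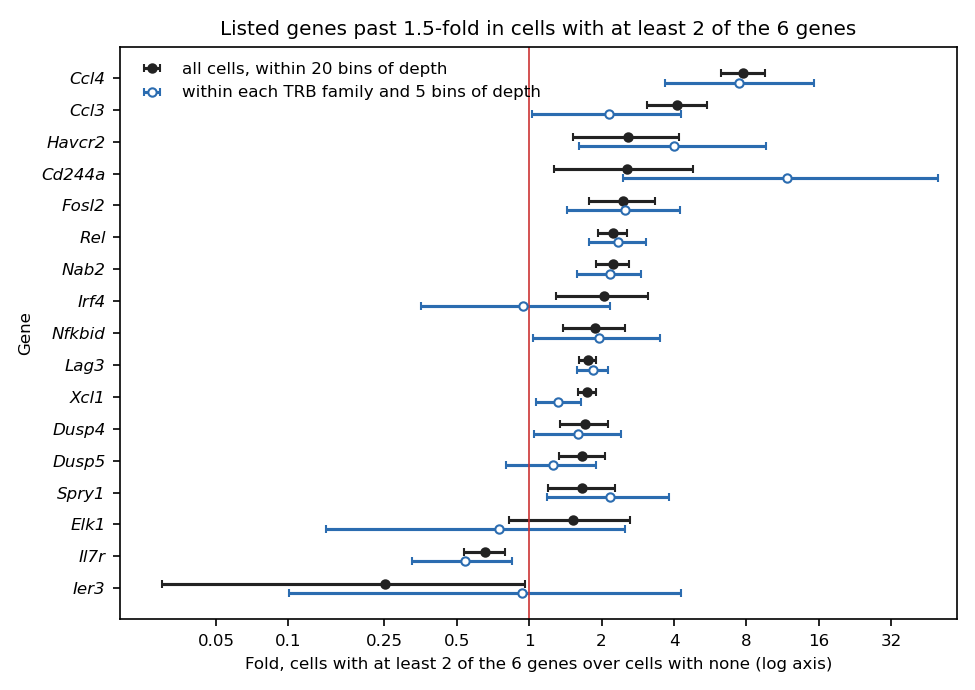
Fold in cells with at least 2 of the 6 genes over cells with none, on a log axis, for the listed genes past 1.5-fold in either direction. Black points are all cells in 20 bins of depth, open blue points cells of the same TRB family in 5 bins of depth, bars are exact 95% counting intervals and the red line marks 1; Ccl4 stands highest at 7.73, and Irf4 stands at 0.946 within families.

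Few of the listed genes differed by 1.5-fold or more between Egr and Nr4a cells. Cells with any Egr UMI (1185, median 2311 UMIs) were set against cells with an Nr4a UMI and no Egr UMI (2349, median 2133 UMIs) in the same way. Egr cells included those that also had an Nr4a UMI, whose part in the folds was not tested. Xcl1 stood at 331 CPM in Egr cells, against 187 CPM in Nr4a cells, a fold of 1.77 (1.62 to 1.93). It was 1 of 18 receptor-induced genes higher by 1.5-fold or more, against a background of 3.33%. Within families its fold was 1.09 (0.892 to 1.34). Cd69 stood at 288 CPM in Egr cells, against 217 CPM in Nr4a cells, a fold of 1.32 (1.21 to 1.44), and at 1.44 (1.24 to 1.68) within families. Lower in Egr cells were Fasl, at 10.6 CPM against 23.8 CPM in Nr4a cells (0.445, 0.295 to 0.655), Havcr2 (0.521, 0.304 to 0.857) and Entpd1, the CD39 gene (0.421, from 7 UMIs). So 2 of 9 inhibitory receptors and exhaustion factors were lower, against a background of 7.62%, and the list median was 0.893. Tox2, an exhaustion-linked factor, stood just above the limit at 42.2 CPM in Egr cells, against 62.5 CPM in Nr4a cells (0.675, 0.548 to 0.827). Within families, where 337 of the 1185 Egr cells had a match, Havcr2 stood at 1.05 and Tox2 at 0.900. The change of cells and the matching by family are not told apart in these values. The largest family, TRBV15/TRBJ1-1, held 111 of the 345 Egr cells in families and 299 of the 746 Nr4a cells. Fasl was 2.84-fold higher in that family than in other family cells, and the part of this in its fold was not tested. Of 4 tested B cell markers 2 were higher in Egr cells, and their sum stood at 137 CPM in Egr cells, against 114 CPM in Nr4a cells. Markers of CD4 and regulatory T cells summed to 28.0 CPM in Egr cells, against 18.3 CPM in Nr4a cells. The part of these markers in the folds was not tested.

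Each side was also set against cells with none. Nab2 had a fold of 1.75 (1.52 to 2.03) in Egr cells and 1.31 in Nr4a cells, and Rel of 1.74 (1.52 to 1.98) and 1.42. Every cell with both an Egr and an Nr4a UMI counted as an Egr cell, so these differences cannot be told apart from the part of such cells. Ccl4 had a fold of 3.997 in Egr cells and 4.28 in Nr4a cells. In Egr cells 5 of 18 receptor-induced genes were higher, against a background of 3.4%, and in Nr4a cells 4 of 19, against 4.02%. None was lower in either, against backgrounds of 5.83% in Egr cells and 5.81% in Nr4a cells. Of the 10 ERK phosphatases and brakes, Dusp4 and Dusp5 were higher in Nr4a cells and none in Egr cells. The direct fold of Egr over Nr4a cells passed 1.5 for none of these 10.

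Across the TRB families the summed level ran from 129 to 489 CPM, with a median of 301 CPM. The CDR3 nucleotide sequences of the 4 families described first identify them. Capitals mark the bases between the start and the end that each shares with another of the 4.
TRBV12-1/TRBJ2-4: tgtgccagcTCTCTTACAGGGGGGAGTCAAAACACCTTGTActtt
TRBV15/TRBJ1-1: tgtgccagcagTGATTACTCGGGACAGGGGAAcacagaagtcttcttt
TRBV12-2+TRBV13-2/TRBJ2-3: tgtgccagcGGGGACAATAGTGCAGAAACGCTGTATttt
TRBV13-1/TRBJ1-1: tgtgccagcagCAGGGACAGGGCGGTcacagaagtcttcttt
The plus sign joins 2 V segment names given to the same CDR3 in the contig table. The families are small clones of unknown specificity, and each was set against the cells of all other 18 families.

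TRBV12-1/TRBJ2-4, a family of 77 cells, had the highest summed level, 489 CPM (401 to 589) against 313 CPM in other family cells, a fold of 1.56 (1.27 to 1.89). Its Egr genes summed to 300.3 CPM and its Nr4a genes to 188 CPM. Egr2 stood at 98.6 CPM in it, against 6.78 CPM in other family cells, a fold of 14.5 (8.30 to 24.8), from 22 UMIs in 7 cells. Egr1 stood at 175 CPM against 76.6 CPM, a fold of 2.28 (1.60 to 3.16), and Egr3 at 26.9 CPM against 4.16 CPM, a fold of 6.46, from 6 UMIs in 4 cells. Nr4a1 had a fold of 2.03 (1.06 to 3.56), while Nr4a2 had one of 0.734 (0.490 to 1.06) and Nr4a3 had no UMI, where 4.36 were expected.

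This level rested on few cells. A single cell of 4232 UMIs held 31 UMIs of the 6 genes, of which 10 were Egr1, 9 Egr2, 3 Egr3, 6 Nr4a1 and 3 Nr4a2. Without it the family stood at 356 CPM. Without the 9 UMIs of its highest Egr2 cell the family stood at 58.3 CPM of Egr2, 8.59-fold over other family cells. Of the Egr2 UMIs that remained, 6 lay in 1 further cell. Without the UMIs of their highest cell, Egr1 had a fold of 1.70, Egr3 of 3.23 and Nr4a1 of 1.09. At matched depth 15 of 77 cells, 19.5% (11.3 to 30.1), had any of the 6 genes, an interval that held the 21.3% of all cells. In these thinned cells the fold of the summed level was 1.12, that of Egr2 1.76 and that of Egr1 1.93, and Egr3 had no UMI. Egr2 was then found in 1.30% of the family's cells (0.0329 to 7.02), which is 1 cell of 77.

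The lists were mixed in this family. Of 8 tested genes reported downstream of Egr2 and Egr3 or in anergy, 4 were lower and none higher, against backgrounds of 20.2% lower and 9.57% higher, with a list median of 0.689. Socs3, a cytokine signalling inhibitor, was the lowest of them at 80.7 CPM, against 245 CPM in other family cells (0.329, 0.195 to 0.522). Izumo1r, a gene of the same list that encodes folate receptor 4, had under 5 UMIs expected and so is outside the counts. It stood at 103 CPM against 8.63 CPM, a fold of 11.9 (7.01 to 19.7), and its 23 UMIs lay in 18 of the 77 cells, at most 2 in any. Of 11 receptor-induced genes 3 were higher and 2 lower. Crtam, a receptor of activated CD8 T cells, had a fold of 2.08, Rel of 1.89 and Tagap of 1.53, while Bhlhe40 had one of 0.590 and Xcl1 of 0.645. Of 7 ERK phosphatases and brakes 5 were lower and none higher, with a list median of 0.629, and Spry2 (0.349) and Dusp1 (0.578) were among them. Of the 2 tested Egr relatives and corepressors, Nab2 was higher, at 117 CPM against 55.8 CPM in other family cells, a fold of 2.09 (1.35 to 3.11). Of 8 quiescence and stemness genes 2 were higher and 1 lower. Id3, an inhibitor of E proteins, stood at 506 CPM against 237 CPM, a fold of 2.14 (1.75 to 2.59), and Il7r had a fold of 0.365. Of 6 tested inhibitory receptors and exhaustion factors 4 were lower. Pdcd1 stood at 58.3 CPM against 374 CPM, a fold of 0.156 (0.0829 to 0.267), and Tox2 at 8.96 CPM against 63.1 CPM.

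TRBV15/TRBJ1-1, the largest family with 882 cells, came second at 444 CPM (415 to 475), against 269 CPM in other family cells, a fold of 1.65 (1.51 to 1.80). Its level was wide rather than concentrated: 29.3% of its cells (26.3 to 32.5) had any of the 6 genes at matched depth, and leaving out its highest cell gave 437 CPM. The Nr4a receptors carried it. Nr4a2 stood at 263 CPM (241 to 287), against 140 CPM in other family cells, a fold of 1.88 (1.67 to 2.11). Nr4a3 stood at 37.6 CPM (29.5 to 47.3), against 12.2 CPM, a fold of 3.10 (2.16 to 4.45). Nr4a1 had a fold of 1.36 (1.01 to 1.84) and Egr1 of 1.22 (1.02 to 1.47). Egr2 stood at 11.3 CPM against 9.22 CPM (0.702 to 2.10) and Egr3 at 3.61 CPM against 5.45 CPM (0.243 to 1.57).

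In this family 8 of 9 inhibitory receptors and exhaustion factors were higher by 1.5-fold or more, against a background of 10.5% of genes, with a list median of 1.65. Ctla4 stood at 266 CPM, against 87.0 CPM in other family cells, a fold of 3.06 (2.68 to 3.49), and Tox2 at 108 CPM against 42.1 CPM, a fold of 2.57. Of 18 receptor-induced genes 4 were higher and 4 lower, against backgrounds of 10.5% and 8.85%. Irf4 had a fold of 4.13 (2.46 to 7.07) and Ifng of 1.79, while Ccl4 had one of 0.312 (0.137 to 0.626) and Xcl1 of 0.649. Dusp4 had a fold of 3.30 (2.56 to 4.26), Fasl of 2.84 and Fosl2 of 2.34. Fos (0.653) and Jun (0.541) were lower.

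TRBV12-2+TRBV13-2/TRBJ2-3, with 600 cells, was low at 207 CPM (186 to 230), against 355 CPM in other family cells, a fold of 0.583 (0.517 to 0.655). Nr4a2 stood at 90.7 CPM (76.6 to 106), against 203 CPM, a fold of 0.447 (0.374 to 0.532). Nr4a3 stood at 9.80 CPM against 22.7 CPM, a fold of 0.433 (0.239 to 0.733), and Egr2 at 4.29 CPM against 11.6 CPM, a fold of 0.369 (0.142 to 0.809). Egr1 (0.897, 0.726 to 1.10) and Nr4a1 (0.832, 0.577 to 1.18) had intervals that held 1. At matched depth 15.1% of its cells (12.3 to 18.3) had any of the 6 genes.

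Other immediate early genes stood high in the same cells. Of 12 AP-1 and other immediate early genes 5 were higher, against a background of 7.21%, with a list median of 1.39. Jun stood at 912 CPM against 466 CPM in other family cells (1.96), and Fos at 626 CPM against 368 CPM (1.70). Hspa1a stood at 2031 CPM against 710 CPM, a fold of 2.86 (2.73 to 2.999). Of 8 inhibitory receptors and exhaustion factors 6 were lower, against a background of 14.8%, with a list median of 0.398. Over the 19 families the log2 summed level of the 6 genes had a correlation of -0.25 with that of the AP-1 list and of -0.22 with that of the heat shock list. The points share 1 library, and the correlation with median depth was -0.16. Markers of B cells and monocytes summed to 204 CPM in TRBV15/TRBJ1-1, 111 CPM in TRBV12-2+TRBV13-2/TRBJ2-3 and 85.2 CPM in TRBV12-1/TRBJ2-4. Without cells with such markers the fold of the summed level was 1.66 in TRBV15/TRBJ1-1, 0.576 in TRBV12-2+TRBV13-2/TRBJ2-3 and 1.55 in TRBV12-1/TRBJ2-4.

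Besides these, 3 smaller families were lower by 1.5-fold or more. TRBV13-1/TRBJ1-1 (39 cells) was the lowest of all at 129 CPM (61.9 to 237), a fold of 0.402, from 10 UMIs in 10 cells, where 18.2% of genes were as far down. TRBV13-3/TRBJ2-2 (31 cells) stood at 177 CPM, a fold of 0.552, with 1 Egr1 UMI, and TRBV12-2/TRBJ1-1 (59 cells) at 193 CPM, a fold of 0.599. The shares of genes as far down in these were 19.4% and 20.2%. In all, 2 families were higher and 4 lower, and the shares of genes as far up in the higher families were 9.57% in TRBV12-1/TRBJ2-4 and 10.5% in TRBV15/TRBJ1-1. Over all 19 families these shares ran from 6.3% to 12.0% up and from 8.85% to 22.2% down. None of the 18 pairs of neighbours in the order of levels had a ratio whose interval lay above 1.

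**Figure D4:**
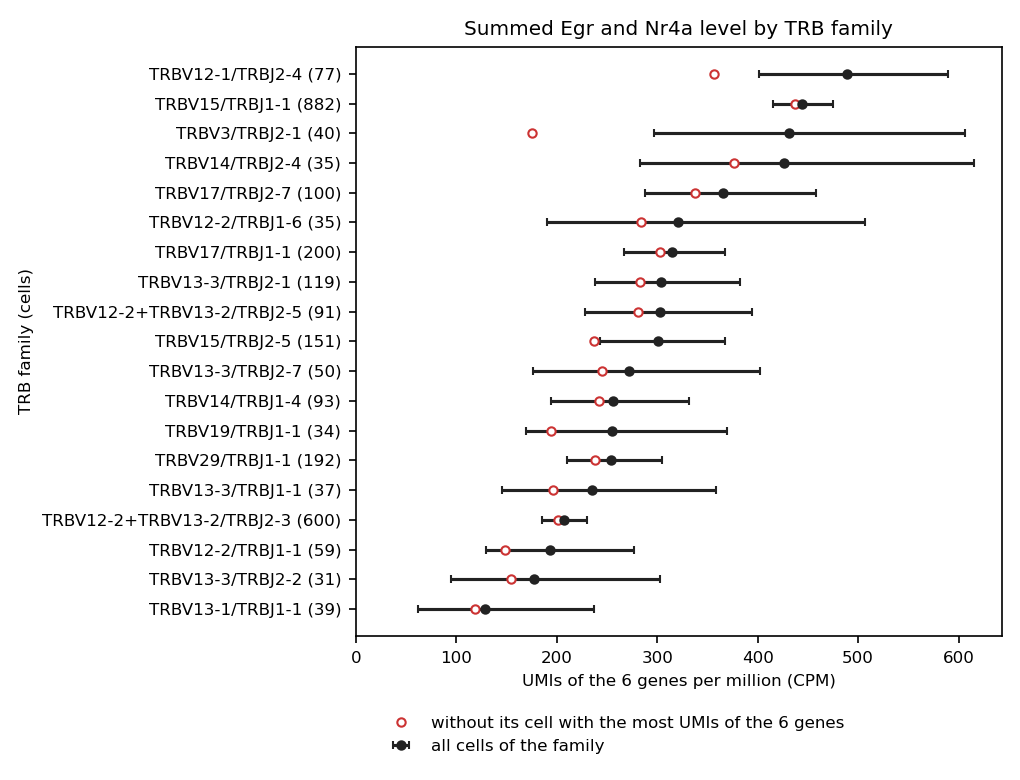
Summed level of the 6 genes in CPM for the 19 TRB families, with the number of cells in brackets. Black points are all cells with exact 95% counting intervals and open red points leave out the cell with the most UMIs of the 6 genes; the level of TRBV3/TRBJ2-1 moves to 175 CPM without 1 cell, and that of TRBV15/TRBJ1-1 to 437 CPM.

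In small families single cells set the level. TRBV3/TRBJ2-1, with 40 cells, came after TRBV15/TRBJ1-1 in the order of levels, at 431 CPM (297 to 606), but 20 of its 33 UMIs lay in 1 cell, and it stood at 175 CPM without that cell. In TRBV15/TRBJ2-5, with 151 cells, all 6 Egr3 UMIs lay in 1 cell that also held 4 Egr1, 3 Egr2 and 8 Nr4a2 UMIs. TRBV14/TRBJ2-4, with 35 cells, had the highest Nr4a2 level of all families, 289 CPM from 19 UMIs, and 31.2% of its cells had any of the 6 genes at matched depth.

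By gene, Nr4a2 ran from 64.5 to 289 CPM over the families, with a median of 155 CPM, and was present in all 19. Egr1 ran from 13.6 to 175 CPM, with a median of 73.5 CPM, also in all 19. Nr4a1 had no UMI in 1 family, Nr4a3 in 3, Egr2 in 7 and Egr3 in 9. A level of 0 in the smaller families lies under the floor of 3 UMIs, which for 77 cells came to 13.4 CPM. Of families with at least 5 UMIs expected, Nr4a2 was higher in 2 and lower in 4 of 19, Egr1 higher in 1 and lower in 5 of 18, and Nr4a1 higher in 1 and lower in 3 of 10. In a family, 6.3% to 12.0% of all tested genes were as far up and 8.85% to 22.2% as far down. Over all 19 families the interval of the fold lay above 1 in 1 and below it in 3 for Nr4a2. These numbers were 2 and 2 for Egr1, and 2 and 1 for Nr4a1. Across families Egr1 and Egr2 had a correlation of log2 levels of 0.65 and Nr4a2 and Nr4a3 of 0.30. Egr2 had at least 5 UMIs expected in 2 of the 19 families and Nr4a3 in 5, so these values rest largely on counts near the floor.

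**Figure D5:**
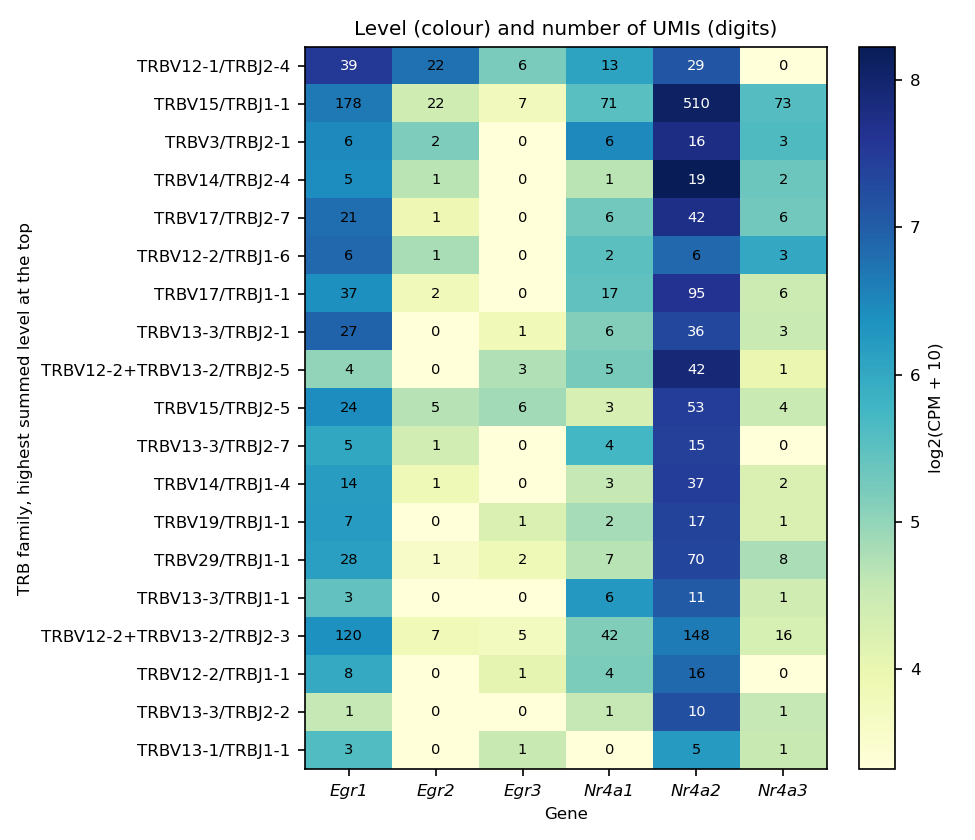
Level of each gene in each of the 19 TRB families as log2(CPM + 10), by colour, with the number of UMIs in digits. Families run from the highest summed level at the top to the lowest. Nr4a2 runs from 64.5 to 289 CPM, and TRBV12-1/TRBJ2-4 holds 22 Egr2 UMIs and no Nr4a3 UMI.

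Among 2285 genes with at least 500 UMIs in family cells, those whose log2 levels over the 19 families were most like the summed level of the 6 genes were Ergic3 (r = 0.81), Commd4 (0.76) and Nfkb1 (0.72), which encodes the p105 and p50 NF-kB subunit. Nfkb1 ran from 53.2 to 245 CPM. The least like were Yme1l1 (-0.69) and Safb (-0.67). These genes are the ends of a ranking of 2285 genes over 19 points, and the r that unrelated genes reach was not tested. Several of the 19 levels rest on single cells, as above.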

How the data were processed

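The RNA matrix is as the authors deposited it, in whole UMI counts with no normalization. Their contig table gives, per contig, a UMI count and whether it is productive. Per the submitters' processing notes, cutadapt 1.17, STAR 2.6.1a, featureCounts 2.0.1 and GRCm38 were used, in roles these notes do not state here. No source used here names the program that assembled the TCR contigs. Barcodes with under 200 genes or with 20% or more mitochondrial UMIs were left out (49 of 10387). No doublet caller was run, and doublets were treated as present. The 6 genes and the lists were chosen with earlier results of these data known. Named genes are the members, any gene of the lists, the 10 genes at each end of the ranking by likeness over families, and the first 10 by co-detection with any of the 6.

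Computed here with python 3.11.15, numpy 2.4.6, scipy 1.17.1 and pandas 2.3.3: UMIs of a gene over all UMIs of the group, per 1000000 (CPM), with exact Poisson intervals; ratios with exact conditional intervals; shares of cells with Clopper-Pearson intervals. The floor is 3 UMIs over the group. A family fold was counted with at least 5 UMIs expected from the pooled level. Likeness is Pearson's r of log2(CPM + 10). Fold limits are 1.5 and its inverse, and background shares are of all tested genes past the same limit. Folds in cells with 2 or more of the genes and between Egr and Nr4a cells, in bins of depth, were added after seeing the data: folds of thinned cells differed between random draws for some genes (Il7r, Ctla4), while for others (Rel, Klf2, Cd69) the draws were alike and farther from 1 than in bins of depth. The scripts were tested on simulated data. The simulated counts for folds were Poisson, without the gathering in few cells seen here.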

Additional observations from a re-analysis of the deposited data

How the results depend on the processing

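No paired analysis was possible because there is 1 RNA library, the TCR library comes from the same cells, and no result comes from a test. The summed level of 307 CPM stood at 422 CPM with ribosomal, mitochondrial, Gm42418 and Malat1 UMIs out of the denominator, and at 315 CPM in cells with exactly 1 TRB. The share of cells with any of the 6 genes moved with depth, from 21.3% at 1000 UMIs to 12.0% at 500 and 35.2% at 2000. The fold of 1.56 in TRBV12-1/TRBJ2-4 stood at 1.90 without the largest family among the other cells; thinned, TRBV14/TRBJ2-4 was the highest family (1.56), and without each family's top cell TRBV15/TRBJ1-1 was (1.82). The number of pairs at 1.5 or more ran from 12 to 14, and all 120 pair ratios recomputed were above 1. Of 421 alternatives for single genes and pairs, 358 stayed within the interval, 58 moved outside it without crossing 1 and 5 moved outside it and across 1. Those were Egr3 in TRBV15/TRBJ2-5 without its top cell (0), Egr3 in TRBV12-1/TRBJ2-4 in thinned cells (0) and, in cells with at least 2 of the genes, Il7r (1.02) and Ctla4 (0.979) in another random draw of thinned cells and Hspa1a within families (1.05). Crtam crossed 1 inside its interval. The cause was not tested. Alternatives for cells with at least 2 of the genes were chosen after seeing the data. Depth limits Egr2 and Egr3, with 232 and 170 UMIs in all, and any level in families under 100 cells.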
